A study of Rattus norvegicus with 4 samples.

Results

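The 10 genes described here are Alox15 and 9 other genes of eicosanoid synthesis, followed in the pancreas of rats fed iron-deficient, iron-adequate or iron-overload diets. They were found by gene symbol among 30367 array probes that carry 26541 gene names, and 11 probes matched the 10 genes. Alox15 was selected because of its ratio in iron-deficient pancreas, the highest on the array, and the other 9 because they act in the same pathway. That ratio is therefore given as a description and not as a finding, as are the other ratios of the same comparison.

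Male Sprague-Dawley rats were fed for 3 weeks a diet labelled as 5 ppm iron (FeD), 35 ppm iron (FeA, the control) or 20275 ppm iron (FeO), the last with carbonyl iron. Pancreatic RNA of 6 rats per diet was combined into 1 pool. Each of the FeD and FeO pools was hybridised together with FeA RNA on 2 arrays that read both dyes, with the diet in Cy5 on array 1 and in Cy3 on array 2. Since these arrays carry the same pair of pools, they count as 1 replicate. Their disagreement is technical, the spread among rats was not measured, and no test of the diets was possible.

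Eicosanoids are signalling lipids made from arachidonic acid, which a phospholipase releases from membranes. Lipoxygenases (Alox genes) oxidise it to hydroperoxides and leukotrienes, whereas the cyclooxygenases (Ptgs genes) open the route to prostaglandins and thromboxane. Alox15 encodes a lipoxygenase that can also oxidise fatty acids still bound in membranes, and it is known from reticulocytes, macrophages, eosinophils and epithelia. In rodents its product is mostly the 12-hydroperoxide, and older names of Alox15 overlap with those of Alox12, so probes were assigned through their RefSeq accession.

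The Alox15 probe carries the accession NM_031010, and the study designed its quantitative PCR primers to the same transcript. Both primers are shown because they fix which transcript is meant, each being 20 bases long with 70% G or C.

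Alox15 forward primer: ccctgtcgggactcggaagc
Alox15 reverse primer: ccagtgccctcagggaggct

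Alox15 was bright in the FeD pool and dim, although above background, in the other pools. Its spot signal was 2286 and 1701.5 intensity units in FeD, 149, 239, 134 and 160 in FeA, and 271.5 and 241 in FeO, before normalization. The FeD spots were 26.0 and 30.9 times as bright as their local background, against 2.05 to 2.69 times for the FeA spots. FeO spots lay between them, at 3.05 and 4.73 times. All 4 FeA, both FeD and both FeO measurements of Alox15 were well above background by the criterion of the scanner software.

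After normalization the channel intensity of Alox15 on the log2 scale was 10.46 and 11.31 in FeD (mean 10.88 ± 0.60, SD of 2 arrays). It was 7.44, 7.31, 7.37 and 6.84 in FeA (7.24 ± 0.27, SD of 4 arrays) and 7.48 and 8.15 in FeO (7.81 ± 0.48, SD of 2 arrays). FeD stood far above both other pools, with no overlap. FeO and FeA did not overlap either, but the lower FeO value and the highest FeA value were nearly equal, so the order of these pools does not go beyond the spread between arrays.

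**Figure D1:**
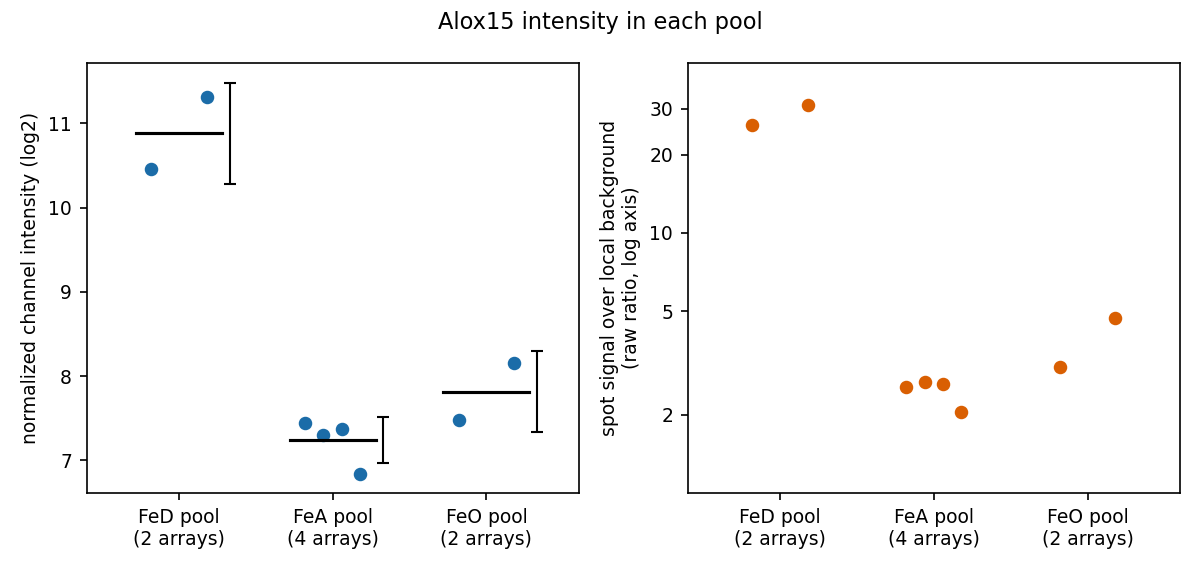
Alox15 in each RNA pool, as normalized channel intensity on the log2 scale (left; points are arrays, the line is their mean and the bar 1 SD) and as raw spot signal over local background on a log axis (right). Both FeD points (10.46 and 11.31) lie above every FeA point (6.84 to 7.44) and both FeO points (7.48 and 8.15).

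Within the arrays, the log2 ratio of FeD over FeA for Alox15 was 3.01 on array 1 and 4.00 on array 2, a mean of 3.51 or 11.4-fold. It ranked 1 of 15750 genes, and the gene in the next place, Tdh, had 2.71. The ratio of the scanner software was larger, 3.75 ± 0.41 and 4.40 ± 0.46 (its own error of a single spot). In FeO over FeA the log2 ratio of Alox15 was 0.11 on array 1 and 1.31 on array 2, a mean of 0.71 or 1.63-fold. That is rank 256 of 16447 genes, and the mean was smaller than the difference of 1.21 between the arrays.

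The disagreement between arrays had the same direction and nearly the same size in both comparisons. Array 2 exceeded array 1 for Alox15 by 0.99 in FeD and 1.21 in FeO on the log2 scale, against a median absolute difference over all genes of 0.22 and 0.23. Subtracting the FeO ratio from the FeD ratio on arrays of the same dye orientation gave 2.91 for array 1 and 2.69 for array 2, a mean of 2.80. This indirect contrast between the diets, taken through the FeA pool, thus differed between dye orientations by much less than either direct ratio did.

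**Figure D2:**
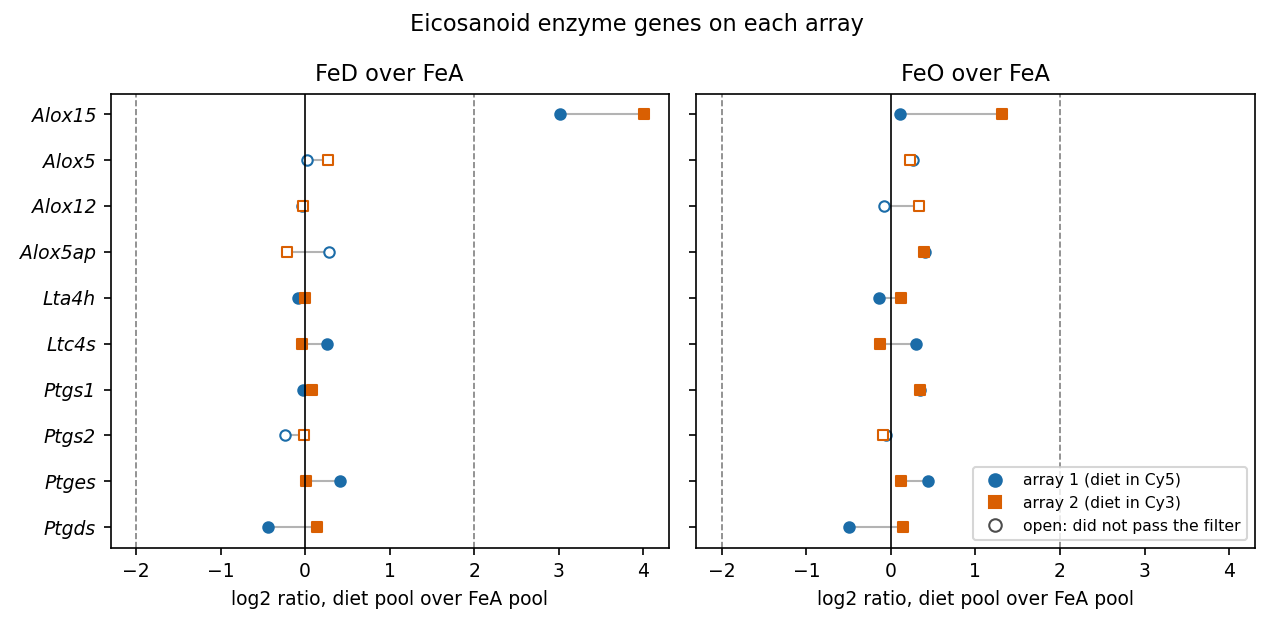
Log2 ratio of the diet pool over the FeA pool for the 10 genes on array 1 (circles) and array 2 (squares), with open symbols for genes that did not pass the filter and dashed lines at 2 and -2. Only Alox15 in FeD (3.01 and 4.00) lies past a dashed line, and Alox15, Ptgds, Ptges and Ltc4s show like gaps between their arrays in both comparisons.

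A gene entered the counts when a probe was well above background on both arrays in at least 1 of the compared pools, which 6 of the 10 genes met in FeD and 7 in FeO. In FeD, Alox15 alone reached a mean log2 ratio of 2, positive on both arrays, and it alone passed 1. Over all genes 0.102% were past 2 and 0.356% past 1. Among the 6 genes, 2 (Alox15 and Ptges) were higher on both arrays, 0 were lower and 4 had opposite signs, whereas 25.3% of all genes were higher on both arrays and 21.7% lower. The median of the 6 was 0.07, or 0.03 without Alox15, beside 0.01 for all genes. The 5 other genes that passed lay between -0.15 (Ptgds) and 0.21 (Ptges).

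In FeO, 0 of the 7 genes were past 2 and 0 past 1, against 0.176% and 1.08% of all genes. Alox15, Alox5ap, Ptgs1 and Ptges were higher on both arrays, 0 were lower and 3 had opposite signs, while 28.1% of all genes were higher on both arrays and 24.1% lower. Alox5ap passed the filter only through the FeO pool, so its direction was a condition of being counted. The median log2 ratio was 0.28, or 0.18 without Alox15, beside 0.01 for all genes.

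**Figure D3:**
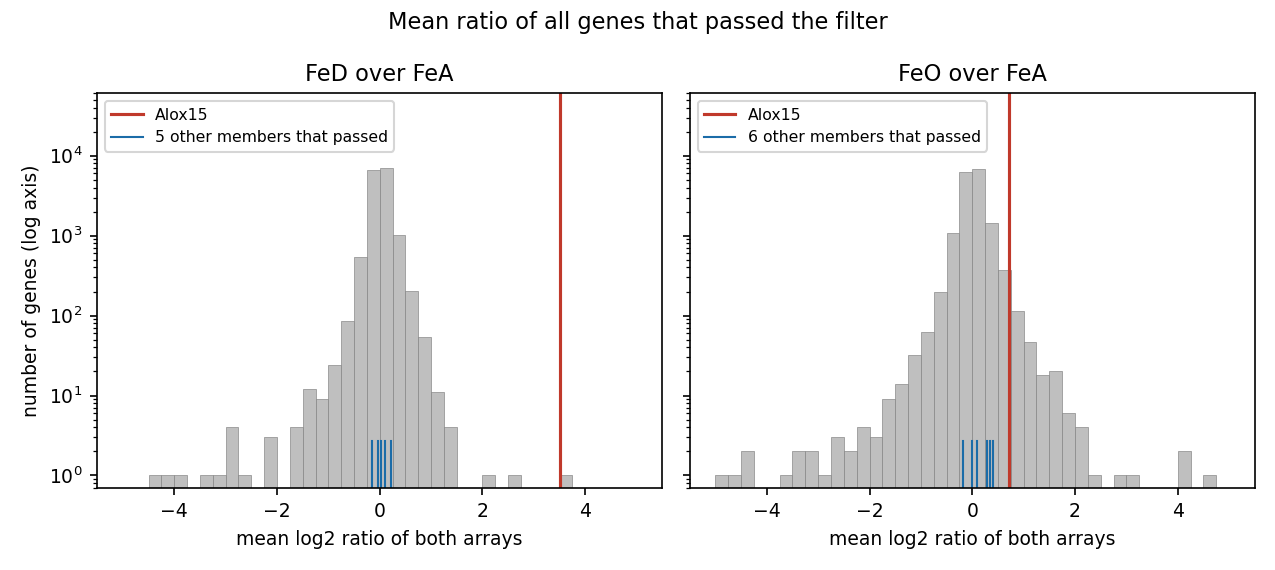
Number of genes (log axis) by mean log2 ratio of both arrays, for the 15750 genes that passed the filter in FeD over FeA and the 16447 in FeO over FeA. Alox15 (long line) is the rightmost gene in FeD at 3.51 and lies on the upper shoulder in FeO at 0.71, while the short lines of the other genes fall in the main peak.

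Among the lipoxygenases, Alox5, which makes leukotriene A4, and Alox12, the platelet-type enzyme, were well above background on no array in any pool. Spot signals ranged from 70 to 124 intensity units for Alox5 and from 77 to 133 for Alox12, so nothing is read from their ratios, and a difference between diets was not detectable at this signal.

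Alox5ap encodes the membrane protein that presents arachidonic acid to Alox5. Its spot signal was 165 and 98 in FeO, well above background on both arrays, while in FeA it was 86, 147, 82 and 125 and passed on 1 of 4 arrays. The log2 ratio in FeO was 0.40 and 0.39. Neither FeA measurement on these arrays was well above background, and the fold against the dim signal or detection floor was 1.32. That is close to the mean ratio itself and is no firm lower limit, as the log2 ratio was 0.26 without background subtraction. In the FeD comparison the ratios were 0.28 and -0.22, and each pool was well above background on 1 array only.

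The downstream leukotriene enzymes were measured in every pool and hardly differed. Lta4h, which hydrolyses leukotriene A4 to B4, is printed on the array 10 times, with log2 ratios of -0.09 and 0.00 in FeD and -0.14 and 0.12 in FeO. The means were -0.04 in FeD and -0.01 in FeO. The SD over its spots was 0.10 to 0.13, which measures repeat spots on an array only, and in FeO the arrays differed by 0.26. Ltc4s, which joins leukotriene A4 to glutathione, had 0.26 and -0.04 in FeD and 0.30 and -0.13 in FeO. Its array 1 value was higher in both comparisons, and neither mean (0.11 and 0.08) exceeded the difference between arrays.

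Ptgs1, the constitutive cyclooxygenase, gave the closest agreement between the swapped arrays in FeO. The log2 ratio of its 10-spot probe was 0.35 and 0.34 in FeO, and -0.03 and 0.08 in FeD. Its normalized intensity was 7.30 and 7.18 in FeO against 6.84 to 6.98 in FeA and 6.95 and 6.97 in FeD. The mean FeO ratio of 0.35 ranked 1175 of 16447 genes, below the 95th percentile of all genes (0.42). The SD over the spots on an array was 0.10 to 0.21, which measures repeat spots only and not the spread among rats. The other Ptgs1 probe was well above background in no pool.

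Ptgs2, the inducible cyclooxygenase, was well above background on no array in any pool, with spot signals of 65 to 109 intensity units. Ptges, the microsomal prostaglandin E synthase, had log2 ratios of 0.41 and 0.01 in FeD and 0.44 and 0.12 in FeO. Ptgds, the lipocalin-type prostaglandin D synthase, had -0.44 and 0.14 in FeD and -0.50 and 0.14 in FeO. For both genes the difference between arrays exceeded the mean ratio. The array 2 minus array 1 difference was -0.40 and -0.32 for Ptges and 0.58 and 0.64 for Ptgds.

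The wider pathway was covered by 44 further genes of arachidonate release, synthesis, breakdown, transport and reception, 43 of them on the array. In FeD 27 passed the filter, of which 6 were higher on both arrays, 12 lower and 9 of opposite sign, with a median log2 ratio of -0.03, beside 25.3% higher and 21.7% lower over all genes. In FeO 28 passed, of which 7 were higher, 12 lower and 9 of opposite sign, with a median of -0.07, beside 28.1% and 24.1%. Hpgds, Dpep2 and Ephx2 in FeD, and Ephx2 and Ggt5 in FeO, passed only through the diet pool, so their higher values were a condition of being counted. None was past 1 in either comparison. Pla2g4a, the cytosolic phospholipase that releases arachidonic acid, was well above background in no pool, and of the 4 other lipoxygenases Alox12e passed in FeD with 0.07 and -0.25.

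Of the 9 genes of inactivation and leukotriene conversion that passed in FeD, 6 were lower on both arrays and 2 higher, and in FeO 4 of 9 were lower and 2 higher. Of all genes 21.7% were lower and 25.3% higher in FeD, and 24.1% and 28.1% in FeO. Ptgr1, a reductase that inactivates prostaglandins and leukotriene B4, had log2 ratios of -0.39 and -0.35 in FeD and -0.59 and -0.62 in FeO. Cyp4f1, a P450 that hydroxylates leukotriene B4, had -0.35 and -0.35 in FeD and -0.54 and -0.40 in FeO. Hpgd, the dehydrogenase that begins prostaglandin breakdown, had -0.43 and -0.12 in FeD and -0.51 and -0.25 in FeO. All 3 were thus lower on every array, by less than a log2 ratio of 1. Both comparisons use the same FeA pool, so a value particular to that pool would appear in each.

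On the higher side, Ephx2, the soluble epoxide hydrolase, had 0.37 and 0.42 in FeD and 0.30 and 0.51 in FeO. For Ephx2 neither FeA measurement of the FeD comparison was well above background, and the fold against the dim signal or detection floor was 1.26 in FeD. Ptger3, a prostaglandin E2 receptor, had the highest FeO ratio of the pathway, 0.84 and 1.01, and 0.41 and 0.36 in FeD. Ptgis, the prostacyclin synthase, had 0.64 and 1.03 in FeO and -0.10 and 0.05 in FeD. Dpep2, a dipeptidase that converts leukotriene D4 to E4, had 0.06 and 0.49 in FeD. Its mean was 1.21-fold higher, with FeA well above background on neither array. Tbxas1, the thromboxane synthase, was lower throughout, with -0.28 and -0.43 in FeD and -0.31 and -0.44 in FeO.

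**Figure D4:**
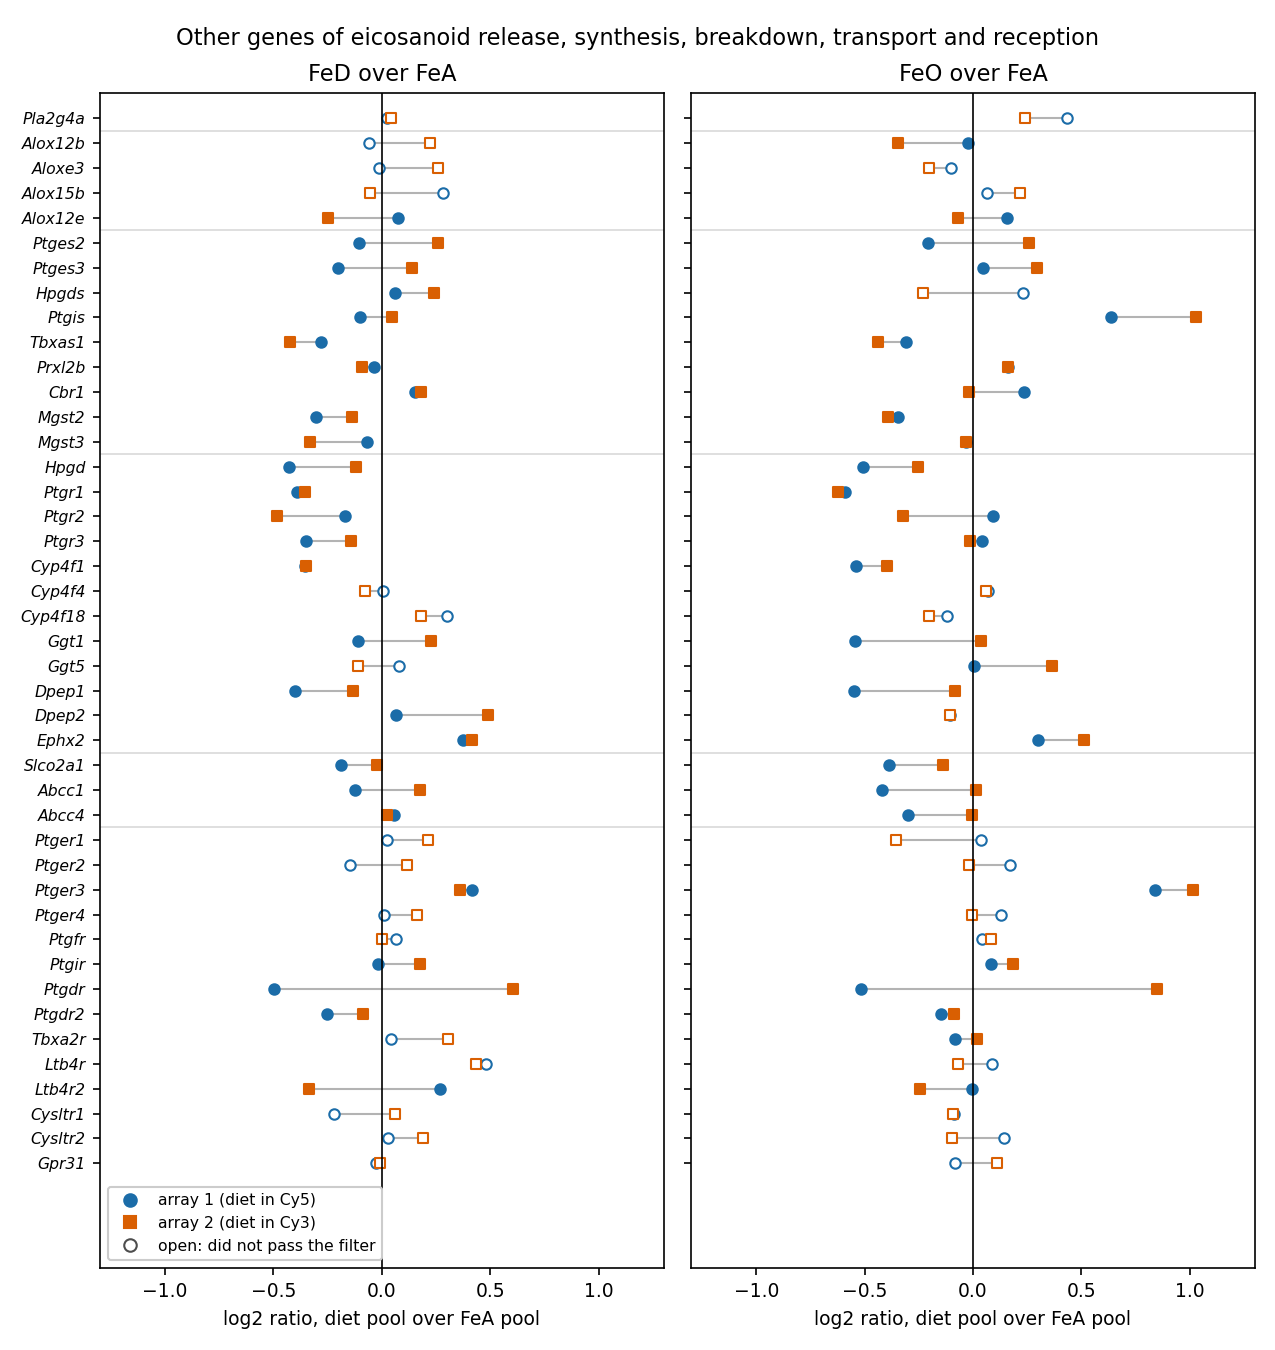
Log2 ratio of the diet pool over the FeA pool for 43 further eicosanoid genes on array 1 (circles) and array 2 (squares), grouped from top to bottom as release, other lipoxygenases, terminal synthases, breakdown and conversion, transport, and receptors; open symbols did not pass the filter. Ptger3 (0.84 and 1.01) and Ptgis (0.64 and 1.03) stand out in FeO, and Ptgr1 and Cyp4f1 are lower on all 4 arrays.

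The 5 genes whose 4 ratios lay nearest to those of Alox15, by Euclidean distance over 15272 genes that passed in both comparisons, were Tdh, LOC688090, ENSRNOT00000046465, Irf7 and Alas2. The distance was 1.89 for Tdh and 3.10 to 3.29 for the others. Since Alox15 was selected for the highest FeD ratio, which enters the distance, its separation from other genes follows in part from that selection. Tdh, threonine dehydrogenase, had mean log2 ratios of 2.71 in FeD and 1.65 in FeO, so it was higher in both. Irf7, an interferon regulatory factor, had 1.25 and 0.47. Alas2, the erythroid enzyme that starts heme synthesis, had 1.24 and 0.44.

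The genes beside Alox15 in the GRCr8 annotation are described by their own ratios. None could reach the FeD ratio of Alox15, since that gene was selected as the highest on the array. Of the 6 protein-coding genes on either side, 11 in all passed the filter, and their mean log2 ratios in FeD ran from -2.12 to 0.32. Alox12e, the adjacent lipoxygenase gene, had -0.09 in FeD, and Pelp1, adjacent on the other side, had 0.23. The lowest value was that of Tm4sf5, the sixth gene on that side, with -2.12 in FeD and -1.24 in FeO.

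Pools of tissue RNA hold several cell types, and fewer cells of a type cannot be told apart from less RNA per cell. Markers of red cell precursors, which can carry Alox15, were higher in FeD. Of 11 erythroid and reticulocyte markers, 9 were on the array as separate genes (Hba-a1 and Hba-a2 share their probes), and 7 passed the filter. All 7 were higher on both arrays in FeD, beside 25.3% of all genes, with a median log2 ratio of 0.57 and a range of 0.21 to 1.24. In FeO 4 were higher, 1 lower and 2 of opposite sign, with a median of 0.25, beside 28.1% of all genes higher and 24.1% lower.

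Alas2 and Slc4a1, the red cell anion exchanger, had the highest erythroid ratios in FeD, 1.24 and 1.09. Alox15 was selected as the highest FeD ratio on the array, so nothing is read from these lying below it. Slc4a1 had -0.07 in FeO. Epb42 and Rhag were well above background in no pool. The summed processed signal of the list, which is mostly globin, was 519000 and 611000 intensity units in FeD, 298000 to 485000 in FeA and 386000 and 521000 in FeO. On each array the diet pool exceeded the FeA pool beside it, in FeO by 521000 against 485000 and by 386000 against 298000. Globin genes are close copies of each other, and their probes may share signal. The part of erythroid RNA in the Alox15 ratio was not tested.

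Of the other cells known to express Alox15, macrophages were represented by 9 markers that passed, of which 6 were higher on both arrays and 1 lower in FeD and also in FeO, with medians of 0.22 and 0.34. Over all genes 25.3% were higher and 21.7% lower in FeD, and 28.1% and 24.1% in FeO. The macrophage markers did not move as one: C1qa, a complement subunit, had 0.61 in FeD and 0.86 in FeO, while Marco, a scavenger receptor, had -0.09 and -0.93. Summed macrophage signal was 19400 to 21900 in FeD, 19200 to 24100 in FeO and 13500 to 18000 in FeA. Among eosinophil markers Prg3, Epx and Il5ra were well above background in no pool, and Prg2 had 0.24 in FeD and -0.20 in FeO.

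Markers of further cell types also differed between pools, among them intestinal epithelium. Epithelia are among the cells named above as known to express Alox15. For the counts that follow, 25.3% of all genes were higher on both arrays and 21.7% lower in FeD. In FeO these shares were 28.1% and 24.1%. Of 12 intestinal epithelium markers, 11 were lower on both arrays in FeD and 10 in FeO, with medians of -1.49 and -1.78, the opposite direction to Alox15. Their summed signal was 16500 to 20700 in FeA, 3790 to 3950 in FeD and 2630 to 3620 in FeO. The 7 lymphoid markers that passed in FeD were all higher on both arrays, with a median of 0.52, and 5 of 6 were lower in FeO, with a median of -0.46. Mast cell markers, 7 of 7 higher in FeO with a median of 0.92, and adipocyte markers, 4 of 5 higher with a median of 1.92, were higher in the same pool as Ptger3, Ptgis, Ptgs1 and Alox5ap. Summed signal of the mast cell list was 2610 to 3490 in FeO, 783 to 1020 in FeD and 731 to 1250 in FeA, and that of the adipocyte list 70700 to 81600 in FeO, 13500 to 17900 in FeD and 15700 to 23000 in FeA. Mesothelial markers (4 of 4 higher in FeO, median 0.59) and endothelial markers (4 of 5, median 0.39) were on the same side. Endothelial markers were also higher in FeD, 5 of 5 with a median of 0.31. Of the platelet markers that passed, 2 of 3 were higher in FeD (median 0.23) and 3 of 4 in FeO (median 0.14). Their summed signal was 1530 to 1560 in FeD, 1300 to 1620 in FeO and 796 to 1000 in FeA. Islet markers were mostly lower, 6 of 8 in FeO (median -0.54) and 5 of 8 in FeD (median -0.25). Among them Gcg went the other way, higher on both arrays of each comparison, with means of 1.14 in FeO and 0.21 in FeD. Some markers passed only through the brighter pool, so their direction was a condition of being counted. Cdh17, Agr2, Fabp1 and Fabp2 (intestinal) passed only through FeA in both comparisons, as did Cd3e and Cd8a (lymphoid) in FeO. Ms4a1 (lymphoid) in FeD, and Hdc (mast cell), Treml1 (platelet), Lrrn4 and Wt1 (mesothelial) in FeO, passed only through the diet pool. The part of these cell types in the ratios was not tested. All 10 acinar markers, which define the exocrine pancreas, passed in FeD, with a median log2 ratio of -0.06. In FeO 7 of them passed, of which 5 were lower on both arrays and 1 higher, with a median of -0.44. Prss1, Cpa1 and Cela2a did not pass because array 2 held no value for them once outlier spots were left out, not because they were dim. On array 1 they had 0.32, -0.51 and -0.35.

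**Figure D5:**
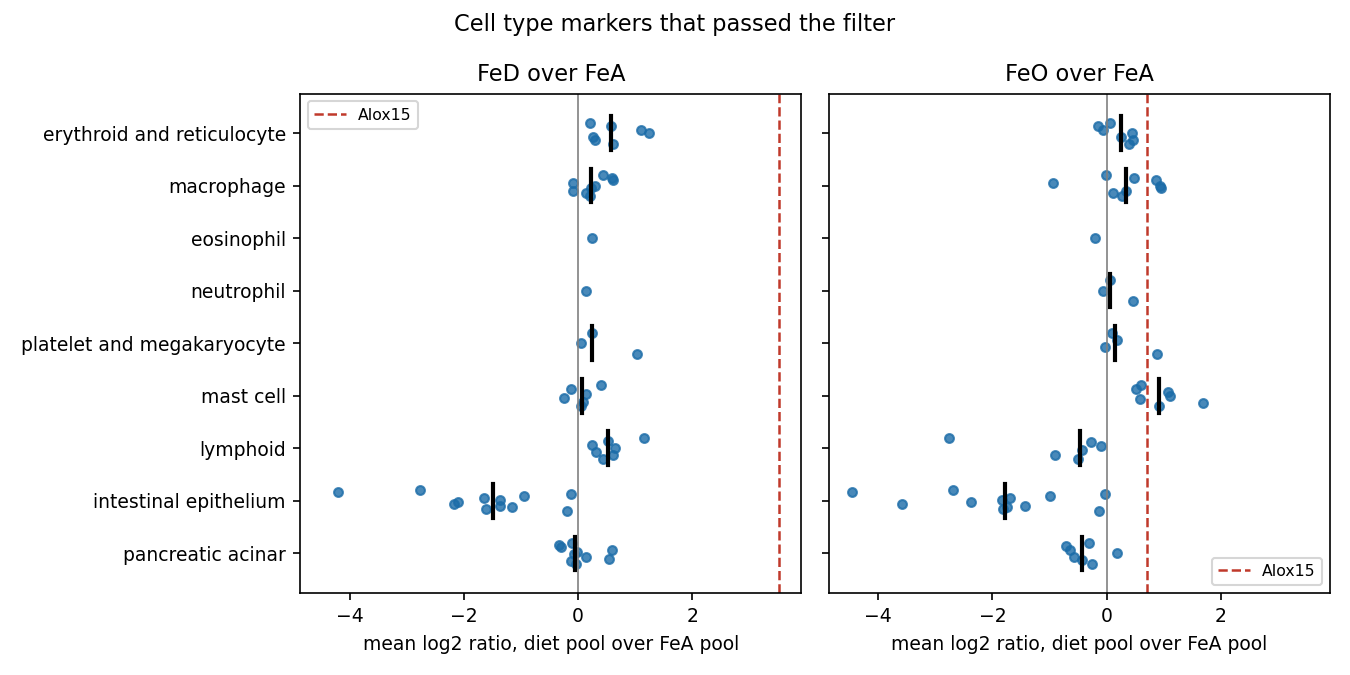
Mean log2 ratio of cell type markers that passed the filter (points), by list, with the median as a black bar and Alox15 as a dashed line. In FeD the erythroid markers (0.21 to 1.24) are all above 0, and the intestinal markers lie below 0 in both comparisons. Alox15 (3.51 in FeD) was selected as the highest ratio on the array, so all markers lie below it there by selection.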

How the data were processed

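The 4 arrays (Agilent rat gene expression, 42877 gene spots) lie on 1 slide with 1 scan in the file headers. The intensity values were deposited by the authors as Feature Extraction 10.1.1.1 output: median spot and local background signals, and processed signals, which are background corrected and dye normalized. The log10 ratios, as deposited, are red over green processed signals, with their error. The authors' tables of fold changes and p-values were not used, except for their gene symbols.

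Ratios were computed here in R 4.3.3 with limma 3.58.1: normexp background correction with an offset of 50, loess within each array, ratios turned by dye, spots of a probe averaged without the outlier spots (722 to 938 per array), and the mean of both arrays taken. Levels used Aquantile normalization. Of the gene spots, 61.9% to 71.5% per channel were well above background; a probe counted as such when over 50% of its spots were. A gene is the mean of its probes that passed. A pool below background on both arrays was set at its dim signal or, if higher, the detection floor of that array. The resulting folds hold for this processing only and are not firm lower limits. The number of arrays limits the precision.

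Names came from RefSeq by accession (18004 probes), the authors' table (4945) or the array name (7418); both naming orders gave the same members. The text names all members, other pathway genes past a log2 ratio of 1 or among the 3 highest and 3 lowest per comparison, the 5 genes nearest to Alox15, and markers by list. Other genes of those lists named here (Pla2g4a, Alox12e, Slc4a1, C1qa, Marco, Gcg) and the neighbours were chosen after their values were seen. So were the markers named for how they passed or failed the filter. Members and lists were chosen with earlier results of these data known. Python 3.11.15, pandas 2.3.3, numpy 2.4.6 and scipy 1.17.1 were used, and the steps were tested on simulated data. Alternatives were other background corrections, median centring, processed signals, the brightest probe, other filters, each array left out, and the methods' t-test on channel values.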

Additional observations from a re-analysis of the deposited data

How the results depend on the processing

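Alox15 kept rank 1 in FeD over FeA, and was past a log2 ratio of 2, under every background correction, normalization, filter and probe choice tried, with a mean of 3.36 (no background subtraction) to 4.07 (processed signals). Leaving out array 1 gave 4.00 and leaving out array 2 gave 3.01. In FeO the Alox15 ratio depended on the array: it was 1.31 without array 1 (rank 92) and 0.11 without array 2 (rank 5276), and 0.68 to 1.24 under the other settings. The count of members past 1 in FeO, 0 as reported, was 2 with processed signals (Alox15 and Alox5ap), 1 without array 1 (Alox15) and 0 without array 2. Over all 16447 genes in FeO, 177 were past 1 as reported, 635 with processed signals, 334 without array 1 and 176 without array 2. The count of members past 2 was 1 in FeD and 0 in FeO without either array. Over all genes 15 in FeD and 38 in FeO were past 2 without array 1, and 16 and 27 without array 2. The methods' t-test, which compares the pools by technical spread only, left the FeD count of members past 2 at 1 (Alox15). After Benjamini-Hochberg adjustment that count was 0. Since Alox15 was selected by this same ratio, the t-test outcome is no evidence for it. Over all probes the t-test placed 1091 in FeD and 1458 in FeO below the threshold, and 1 and 0 after adjustment.

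The count of all genes past 2 rose from 16 to 63 in FeD and from 29 to 133 in FeO with processed signals, and past 1 from 56 to 280 and from 177 to 635; with an offset of 0 the counts past 2 were 27 and 64. Nothing is read from Alox5, Alox12 and Ptgs2, which were well above background in no pool. Alox5ap in FeO ranged from 0.26 (no background subtraction) to 1.18 (processed signals), and Ptgs1 in FeO from 0.17 (no filter on dim probes, which adds the dim probe) to 0.70 (processed signals). The causes were not tested. No paired analysis was possible because each diet is 1 pool and no test of the diets was made.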
